A study of Homo sapiens with 36 samples.

Results

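Genes of glycolysis and of the response to low oxygen were followed in human breast cell lines, as a list of 39 genes out of 60725 Ensembl genes in the deposited tables. The members were listed by name and not by their values: 2 glucose transporters (SLC2A1, SLC2A3), 8 genes of upper glycolysis (HK1, HK2, GPI, PFKL, PFKM, PFKP, ALDOA, ALDOC), 2 enzymes that set fructose-2,6-bisphosphate (PFKFB3, PFKFB4), 7 genes of lower glycolysis (TPI1, GAPDH, PGK1, PGAM1, ENO1, ENO2, PKM), 3 of pyruvate and lactate handling (LDHA, SLC16A3, PDK1), 2 carbonic anhydrases (CA9, CA12), 3 secreted hypoxia targets (VEGFA, ADM, ANGPTL4), 2 mitophagy receptors (BNIP3, BNIP3L), 3 genes of oxygen sensing (HIF1A, EGLN1, EGLN3), 2 collagen prolyl hydroxylases (P4HA1, P4HA2) and 5 other hypoxia targets (NDRG1, ANKRD37, DDIT4, KDM3A, ERO1A). RNA was sequenced in 36 libraries, in 18 groups of 2. ER-Src cells are MCF-10A mammary epithelial cells whose Src oncoprotein is a fusion with the hormone-binding part of the estrogen receptor. Tamoxifen (TAM) activates this fusion, and ethanol (ETH) served as solvent control. The second line, MDA-MB-231, is a widely used breast cancer line. Cells of both lines had received siRNA pools.

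The ER-Src groups were a control siRNA (Ctrli) and knockdown of YAP (YAPi), TAZ (TAZi), STAT3 (STAT3i) or JUNB (JUNBi), each under ETH and under TAM. The MDA-MB-231 groups, without added inducer, came in a first set of Ctrli, YAPi, TAZi, YAPi_TAZi (both factors together) and TEADi (the TEAD family), and a second set of Ctrli, JUNBi and STAT3i. All ER-Src groups carried the Src fusion and grew with EGF, hydrocortisone, cholera toxin, insulin and charcoal-stripped serum, whereas MDA-MB-231 cells grew in DMEM with serum. The labels and methods name AZD0530, an inhibitor of Src kinases, together with tamoxifen for induction, and the hours of TAM behind these RNA libraries are not given in the sources used here. No source says that oxygen was lowered in any group. Nothing states whether the 2 libraries of a group came from separate cultures, so p-values measure the spread between these libraries, which may be technical. In bulk RNA, fewer cells that express a gene and less RNA per cell cannot be told apart.

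As background, glycolysis splits glucose into pyruvate in the cytosol, and lactate dehydrogenase A turns pyruvate into lactate, which SLC16A3 exports. When oxygen falls, the prolyl hydroxylases EGLN1 and EGLN3 no longer mark the HIF-1α protein, product of HIF1A, for destruction, and HIF bound to hypoxia response elements raises the transcription of glucose transporters, glycolytic enzymes, VEGFA and other targets. In normoxic cells growth factor signalling and oncoproteins can raise the same genes, and many breast cancer lines keep a high glycolytic flux.

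The promoter sequences of 4 members (HK2, PFKFB3, ANGPTL4 and HIF1A) are shown because their RNA changed with TAM and again in the knockdowns. PFKFB3, ANGPTL4 and HIF1A responded to STAT3 knockdown differently under TAM and ETH, and HK2 was called in all 4 knockdowns under TAM. Not all of these calls held under other settings, as given below. Each runs 5′ to 3′ on the strand of the gene from 250 bases before to 50 bases after the start in RefSeq (GRCh38.p14), and capitals mark matches to the core letters of the hypoxia response element (ACGTG or GCGTG, either strand).
HK2 (chr2:74833877-74834176, plus strand): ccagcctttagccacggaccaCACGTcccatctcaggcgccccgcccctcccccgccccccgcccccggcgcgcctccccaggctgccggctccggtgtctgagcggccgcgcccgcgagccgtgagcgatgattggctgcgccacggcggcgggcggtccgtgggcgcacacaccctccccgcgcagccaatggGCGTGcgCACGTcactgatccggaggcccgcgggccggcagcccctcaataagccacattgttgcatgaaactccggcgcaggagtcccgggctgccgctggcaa
PFKFB3 (chr10:6144671-6144970, plus strand): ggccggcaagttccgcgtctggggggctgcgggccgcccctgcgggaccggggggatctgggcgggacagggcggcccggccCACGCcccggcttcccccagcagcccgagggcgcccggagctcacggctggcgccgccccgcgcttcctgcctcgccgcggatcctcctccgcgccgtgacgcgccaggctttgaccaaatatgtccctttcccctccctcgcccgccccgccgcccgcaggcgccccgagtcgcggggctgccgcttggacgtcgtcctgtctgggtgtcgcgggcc
ANGPTL4 (chr19:8363905-8364204, plus strand): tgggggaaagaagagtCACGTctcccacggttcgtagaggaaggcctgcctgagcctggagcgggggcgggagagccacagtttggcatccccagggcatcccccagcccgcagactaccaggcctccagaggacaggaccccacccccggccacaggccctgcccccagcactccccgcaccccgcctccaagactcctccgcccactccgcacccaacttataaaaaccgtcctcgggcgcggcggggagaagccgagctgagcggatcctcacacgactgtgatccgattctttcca
HIF1A (chr14:61695263-61695562, plus strand): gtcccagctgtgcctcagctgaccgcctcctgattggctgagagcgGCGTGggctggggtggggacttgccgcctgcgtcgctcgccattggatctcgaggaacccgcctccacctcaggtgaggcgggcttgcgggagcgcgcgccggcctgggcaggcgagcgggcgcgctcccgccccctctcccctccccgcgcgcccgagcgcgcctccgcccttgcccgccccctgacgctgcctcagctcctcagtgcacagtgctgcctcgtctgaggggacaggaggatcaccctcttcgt
The HK2 window held CACGT at positions -229 and -48 and GCGTG at -55, relative to the start. PFKFB3 had CACGC at -168, ANGPTL4 had CACGT at -234 and HIF1A had GCGTG at -204. Windows were found for 35 of the 39 members (those of SLC2A3, VEGFA, BNIP3L and NDRG1 are not shown). Either core was present in 26 of these 35 (74.3%), against 48.4% of 35116 RefSeq promoters of the same length. ACGTG alone was in 16 members (45.7%, against 21.4%) and GCGTG in 17 (48.6%, against 36.5%). The AP-1 letters TGANTCA were in 2 members (5.7%, against 7.7%), the STAT letters TTCNNNGAA in 1 (2.9%, against 7.7%) and the TEAD letters GGAATG in 3 (8.6%, against 14%), on either strand. None of the 4 printed windows held the AP-1, STAT or TEAD letters. Base composition was not matched between the members and all promoters, and both hypoxia response element cores contain CG. The list was also made in part of known hypoxia targets. These matches are descriptions of letters in a short window, and nothing about binding follows from them.

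Depth, as total expected counts, was 6419720 to 19161700 in the 20 ER-Src libraries, 13456784 and 13534560 in the set 1 controls, 1411304 to 2784605 in the 8 set 1 knockdown libraries and 7290499 to 18076158 in set 2. Of all counts, RNAs without a poly(A) tail took 9.43% to 11.7% in the ER-Src libraries, 8.71% to 11.8% in those of the set 1 knockdowns, but 0.0028% to 0.0112% in the set 1 controls and in set 2, so that in set 1 the siRNA and the kind of library cannot be told apart. The targeted RNA was below both controls in both libraries of every knockdown, with 1.0% to 58.1% left (TEAD1 was the highest, and JUNB under ETH the next at 45.4%). The epithelial markers KRT5, TP63 and CDH1 were high in ER-Src, while in MDA-MB-231 TP63 stayed at or below 4.1 and CDH1 at or below 8.2 normalized counts. KRT5 was at 0 in 12 of 16 MDA-MB-231 libraries and at 51.5 to 77.5 normalized counts in replicate 1 of each set 1 knockdown, against 40615 or more in every ER-Src library. VIM and AXL were high in MDA-MB-231, but SPARC, another mesenchymal marker, was at 8.9 or less. Of 8 basal epithelial markers listed, 8 averaged 10 counts or more in ER-Src (TAM against ETH) and 4 in MDA-MB-231 (YAPi against Ctrli, set 1). LAMB3 and ITGB4 were detected in MDA-MB-231 and called lower with YAPi. Of 6 mesenchymal markers, 6 averaged 10 counts or more in the same ER-Src comparison and 4 in that of MDA-MB-231. ESR1, which the fusion in part contains, was high in ER-Src only.

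The members spanned over 4 orders of magnitude of RNA level. Levels between genes are compared in scaled TPM, the deposited TPM rescaled within each set of libraries on protein-coding genes, as mean ± SD of 2 libraries. In ER-Src Ctrli under ETH, GAPDH was highest at 7255 ± 360.0, followed by ENO1 at 3733 ± 108. PKM (1946 ± 78.2) and LDHA (1935 ± 111) came next and did not differ beyond their spread. ALDOA, PGK1 and TPI1 completed the 7 members above 1000, all of them enzymes of glycolysis or, for LDHA, of lactate formation. At the other end, PFKFB4, ANKRD37, SLC2A3, ENO2, CA9 and EGLN3 were below 10, with EGLN3 at 0.42 ± 0.14. The median member stood at 54.2 under ETH and 84.1 under TAM.

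In MDA-MB-231 set 1 Ctrli the same 7 genes exceeded 1000, with GAPDH again highest at 8687 ± 164, but no member was below 10 and the median was 139.3. CA9, the cell-surface carbonic anhydrase, was at 42.6 ± 0.64 there against 0.64 ± 0.07 in ER-Src Ctrli under ETH. ENO2, the neuronal-type enolase, was at 196 ± 23.4 against 3.88 ± 0.47. The controls of set 2, which are the same cell line, gave lower values for many hypoxia targets, with a median member of 55.0. HIF1A was at 9.59 ± 1.67 in set 2 and 169 ± 5.25 in set 1, NDRG1 at 94.6 ± 20.5 and 633 ± 164, and LDHA at 461 ± 168 and 3485 ± 87.0. The sets were scaled separately and no test was made across them, and culture and library preparation cannot be told apart here.

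Switching on Src with TAM, in cells with the control siRNA, asked which of these genes change in transformation. Of the 39 members, 11 rose and 1 fell (DESeq2, adjusted p under 0.01), whereas 4.56% of the 15934 genes tested were called higher and 1.56% lower. The median log2 fold change of the members was 0.33, against -0.02 over all genes that averaged 10 counts or more, for which the middle 50% ran from -0.22 to 0.25. All 3 genes of oxygen sensing rose, 2 of 3 secreted targets rose, and none of the 7 genes of lower glycolysis was called. Log2 fold changes are given below ± SE, and counts are normalized counts of the 2 libraries.

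**Figure D1:**
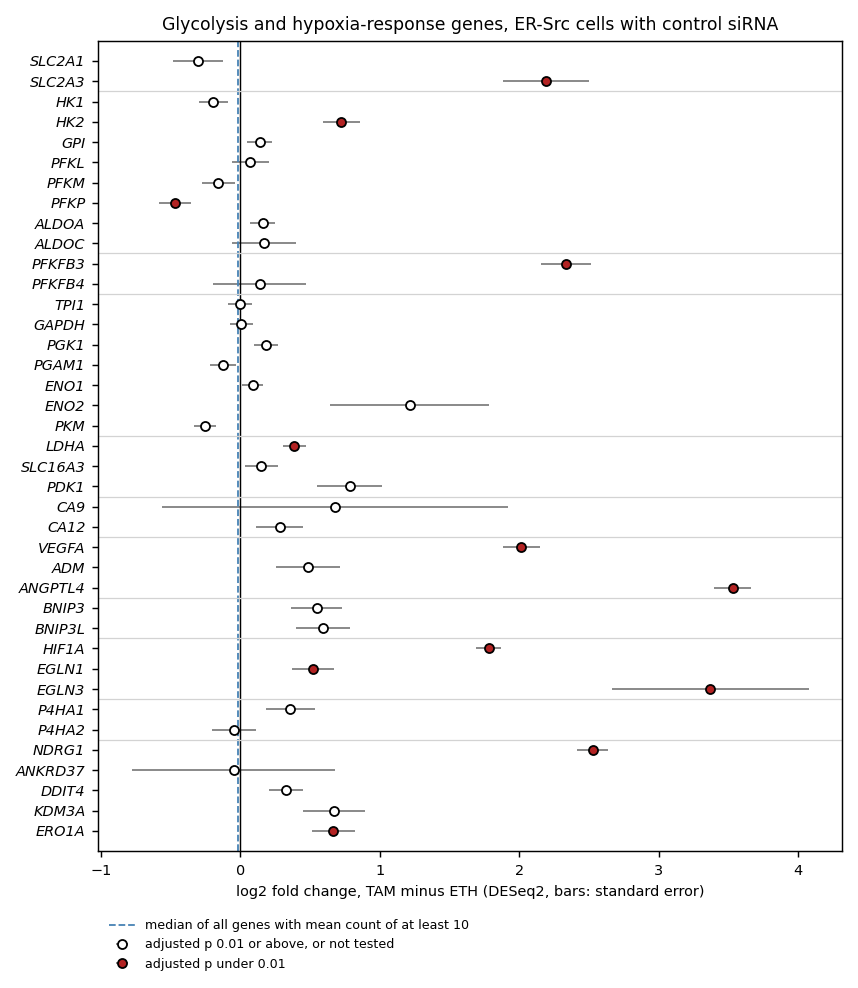
Log2 fold change of each of the 39 members for TAM against ETH in ER-Src cells with the control siRNA (x axis, log2; error bars are SE from DESeq2, 2 libraries a group), grouped by role. ANGPTL4, EGLN3, NDRG1, PFKFB3, SLC2A3, VEGFA and HIF1A lie above 1.7. None of the enzymes of lower glycolysis is called, ENO2 is the highest of them, and their median is 0.006.

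HIF1A, which encodes the oxygen-regulated subunit of HIF, went from 4245 and 4095 under ETH to 13645 and 14809 under TAM, so both TAM libraries were more than 3 times above both controls (log2 fold change 1.78 ± 0.09, adjusted p = 5.97e-86). EGLN3, a hydroxylase that is itself a HIF target, went from 10.2 and 4.6 under ETH to 89.0 and 63.4 under TAM (log2 fold change 3.37 ± 0.71, adjusted p = 5.43e-05). Its counts were low, and it was no longer called without Ctrli TAM replicate 1 or Ctrli ETH replicate 2 (adjusted p up to 0.177). EGLN1, the main hydroxylase in normoxia, changed least of the 3, from 1192 and 1347 under ETH to 1585 and 2043 under TAM (log2 fold change 0.52 ± 0.15, adjusted p = 0.00932), and lost its call without any 1 of the 4 libraries.

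Among the secreted targets, ANGPTL4, an inhibitor of lipoprotein lipase, had the largest change of all members, from 413 and 525 under ETH to 5257 and 5471 under TAM (log2 fold change 3.53 ± 0.13, adjusted p = 8.1e-160). VEGFA, the vascular growth factor, went from 603 and 608 under ETH to 2549 and 2302 under TAM (log2 fold change 2.02 ± 0.13, adjusted p = 5.29e-51). ADM, the peptide adrenomedullin, stood at 279.8 and 254 under ETH and 344 and 399 under TAM and was not called (log2 fold change 0.48 ± 0.23). NDRG1, a stress-response gene induced by hypoxia and by differentiation, went from 943 and 1021 under ETH to 5916 and 5297 under TAM (log2 fold change 2.53 ± 0.11, adjusted p = 1.81e-106). The ETH and TAM libraries of ANGPTL4, VEGFA and NDRG1 were far apart, and their calls held with any 1 library left out.

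Among the genes of glucose handling PFKFB3 and SLC2A3 changed most. PFKFB3, which makes the phosphofructokinase activator fructose-2,6-bisphosphate, went from 259 and 261 under ETH to 1431 and 1160.4 under TAM (log2 fold change 2.34 ± 0.18, adjusted p = 5.58e-37), while its relative PFKFB4 was not called (log2 fold change 0.14 ± 0.33). SLC2A3, the high-affinity glucose transporter GLUT3, went from 65.1 and 63.4 under ETH to 272 and 313 under TAM (log2 fold change 2.20 ± 0.31, adjusted p = 7.43e-11). Its counts are uncertain, because reads can be split with the near-identical gene SLC2A14, which was not counted here, and with 3 pseudogenes. These pseudogenes held a median of 12% (at most 77.3%) of the expected counts of SLC2A3 and pseudogenes together over the libraries. SLC2A1, the broadly expressed GLUT1, was at 589 and 665 under ETH and 513 and 493 under TAM and was not called (log2 fold change -0.30 ± 0.18). HK2, the inducible hexokinase, went from 912 and 877 under ETH to 1497 and 1431 under TAM (log2 fold change 0.72 ± 0.13, adjusted p = 2.57e-06), and lost its call in 3 of 4 fits with a library left out (adjusted p up to 0.0386).

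ERO1A, an oxidase of protein folding in the endoplasmic reticulum, went from 679 and 620.2 under ETH to 1016 and 1032 under TAM (log2 fold change 0.67 ± 0.15, adjusted p = 0.000321), a call that was lost without any 1 of the 4 libraries. The other calls, outside the 10 largest, were LDHA, from 17305 and 16103 under ETH to 21799.6 and 21551 under TAM (log2 fold change 0.39 ± 0.08, adjusted p = 8.69e-05), and PFKP, the platelet-type phosphofructokinase and the only member that fell, from 4051 and 4361 under ETH to 2786 and 3256 under TAM (log2 fold change -0.47 ± 0.11, adjusted p = 0.000796). With edgeR 12 members were called higher and none lower. The remaining 27 members had log2 fold changes between -0.30 and 1.21 and were not called, GAPDH, ENO1 and TPI1 among them. The highest of these was ENO2, at 27.5 and 27.7 under ETH and 69.0 and 57.3 under TAM (log2 fold change 1.21 ± 0.57, adjusted p = 0.239), and PDK1 just missed the threshold (0.79 ± 0.23, adjusted p = 0.0118). Leaving out 1 library gave 6 (without Ctrli TAM replicate 1) to 9 called members.

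Knockdown of the 4 factors in TAM-treated cells asked which of the genes change when each factor is lowered with Src on. JUNBi lowered 16 members and raised 1, where 2.77% of the 13375 genes tested were called higher and 3.95% lower. The member median was -0.49, below the lower quartile of all genes (-0.32). YAPi lowered 13 and raised 2, where 5.4% of the 14182 genes tested were called higher and 5.54% lower, with a median of -0.31. STAT3i lowered 12 and raised none, where 3.29% of the 14470 genes tested were called higher and 4.8% lower, with a median of -0.27. TAZi lowered 6 and raised 2, where 1.79% of the 13442 genes tested were called higher and 1.74% lower, with a median of -0.20. The 4 comparisons share the same 2 Ctrli TAM libraries, so their values are given side by side without a measure of likeness. TAM against ETH uses these 2 libraries too, so a rise with TAM and a fall in a knockdown are not separate observations. Gene length less effective length was 49.0 bases in all ER-Src STAT3i and JUNBi libraries, under ETH and TAM. It was 49.47 to 49.49 in the Ctrli, YAPi and TAZi libraries. For STAT3i and JUNBi the siRNA and this library property cannot be told apart.

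**Figure D2:**
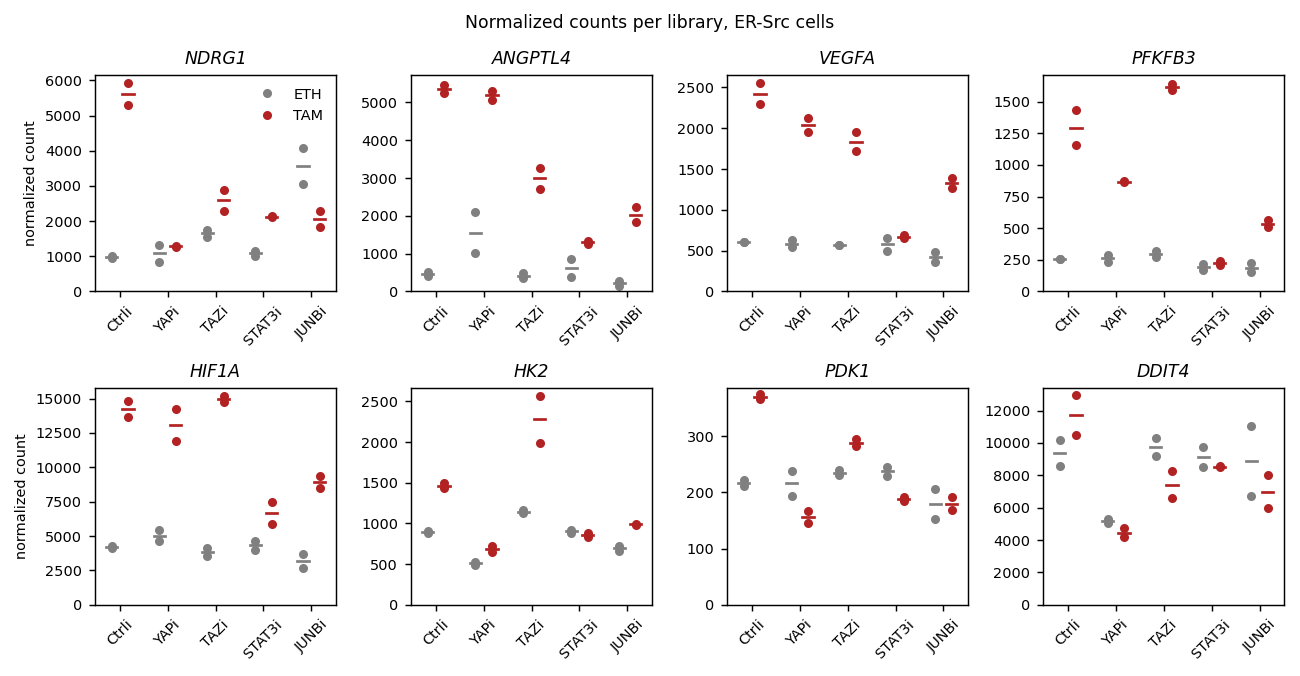
Normalized counts (y axis, linear scale) of NDRG1, ANGPTL4, VEGFA, PFKFB3, HIF1A, HK2, PDK1 and DDIT4 in the 10 ER-Src groups. Each point is 1 library and each bar the mean of 2. NDRG1 under TAM is lower in all 4 knockdowns than in Ctrli, and among the TAM libraries VEGFA and PFKFB3 are lowest with STAT3i.

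HIF1A RNA under TAM stood at 13645 and 14809 with Ctrli, 14270.2 and 11906 with YAPi, 15161 and 14719 with TAZi, 7509.9 and 5886 with STAT3i and 9357 and 8506 with JUNBi. The STAT3i and JUNBi libraries were below both controls, and the log2 fold changes were -1.06 ± 0.13, adjusted p = 6.94e-14 for STAT3i and -0.65 ± 0.11, adjusted p = 2.03e-07 for JUNBi. With YAPi and TAZi it was not called (-0.11 and 0.07). EGLN3 fell from 89.0 and 63.4 with Ctrli to 2.1 and 9.3 with YAPi, 14.4 and 7.9 with STAT3i and 1.7 and 2.6 with JUNBi. Its log2 fold changes were -3.66 ± 0.73, adjusted p = 1.2e-05 for YAPi, -2.75 ± 0.62, adjusted p = 0.000212 for STAT3i and -5.14 ± 0.88, adjusted p = 3.34e-07 for JUNBi, and without Ctrli TAM replicate 1 none of these 3 calls held (adjusted p up to 0.22), and the STAT3i call was lost without any 1 library. With TAZi EGLN3 was at 24.6 and 27.7 and was not called. EGLN1 was not called in any of the 4.

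VEGFA was lower in the STAT3 and JUNB knockdowns. It stood at 2549 and 2302 with Ctrli, 2129.8 and 1958 with YAPi, 1952 and 1724 with TAZi, 688 and 656 with STAT3i and 1267 and 1395 with JUNBi. The log2 fold changes were -1.83 ± 0.14, adjusted p = 1.94e-36 for STAT3i and -0.84 ± 0.13, adjusted p = 3.35e-08 for JUNBi, and with STAT3i the RNA was near its ETH level of 603 and 608. The JUNBi call was lost without Ctrli TAM replicate 1 (adjusted p = 0.0157). ANGPTL4 stood at 5257 and 5471 with Ctrli, 5292 and 5075 with YAPi, 3263 and 2713 with TAZi, 1330.4 and 1265 with STAT3i and 1833 and 2235 with JUNBi. It fell with STAT3i (log2 fold change -2.03 ± 0.12, adjusted p = 7.59e-63), with JUNBi (-1.38 ± 0.13, adjusted p = 7.65e-24) and with TAZi (-0.84 ± 0.11, adjusted p = 3.74e-11), and was not called with YAPi (log2 fold change -0.04 ± 0.10). ADM went the other way with JUNBi, from 344 and 399 to 926 and 989.6 (log2 fold change 1.40 ± 0.18, adjusted p = 4.19e-12), the only member that JUNBi raised.

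PFKFB3 had its largest fall with STAT3i. It stood at 1431 and 1160.4 with Ctrli, 863 and 871 with YAPi, 1641 and 1591 with TAZi, 209 and 241 with STAT3i and 506 and 567 with JUNBi. The log2 fold changes were -2.51 ± 0.19, adjusted p = 2.9e-39 for STAT3i, -1.25 ± 0.17, adjusted p = 4.62e-11 for JUNBi and -0.57 ± 0.16, adjusted p = 0.00334 for YAPi, and the YAPi call was lost without any 1 of the 4 libraries (adjusted p up to 0.491). With STAT3i both libraries were below the ETH controls (259 and 261). SLC2A3 was called with STAT3i only, at 159.6 and 104 against 272 and 313 (log2 fold change -1.12 ± 0.30, adjusted p = 0.00266), and lost that call without any 1 library.

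HK2 was called in all 4 knockdowns, in both directions. It stood at 1497 and 1431 with Ctrli, 727 and 655 with YAPi, 2564 and 1993 with TAZi, 831 and 887 with STAT3i and 984 and 994 with JUNBi. YAPi, STAT3i and JUNBi lowered it (log2 fold changes -1.08 ± 0.15, adjusted p = 1.19e-11 for YAPi, -0.75 ± 0.15, adjusted p = 8.5e-06 for STAT3i and -0.54 ± 0.14, adjusted p = 0.00275 for JUNBi) and TAZi raised it (0.64 ± 0.14, adjusted p = 0.000557). The TAZi and STAT3i calls were each lost in 3 of 4 fits with a library left out, and the TAZi call with edgeR as well. The JUNBi call of HK2 was outside the 10 largest and was not followed through the alternatives. ALDOC, the brain-type aldolase, stood at 385 and 317 with Ctrli and fell to 138 and 93.6 with YAPi and 138 and 189 with JUNBi (log2 fold changes -1.60 ± 0.29, adjusted p = 1.03e-06 for YAPi and -1.09 ± 0.27, adjusted p = 0.00158 for JUNBi). PFKL, the liver-type phosphofructokinase, fell with JUNBi from 1567 and 1711 to 829 and 1064 (log2 fold change -0.77 ± 0.16, adjusted p = 6.9e-05), and PFKP with TAZi from 2786 and 3256 to 2124 and 1985 (-0.55 ± 0.12, adjusted p = 0.000177). The calls of ALDOC with JUNBi (adjusted p up to 0.347) and of PFKL (0.0872) were lost when Ctrli TAM replicate 1, among others, was left out, as was ALDOC with YAPi (0.045), and PFKP with TAZi without Ctrli TAM replicate 2 or either TAZi library (0.233).

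PDK1, the kinase that shuts pyruvate dehydrogenase, stood at 375 and 366 with Ctrli, 166 and 147 with YAPi, 282 and 295 with TAZi, 191 and 184 with STAT3i and 192 and 169 with JUNBi. It was called lower with YAPi (log2 fold change -1.24 ± 0.24, adjusted p = 8.03e-06), JUNBi (-1.02 ± 0.25, adjusted p = 0.000973) and STAT3i (-0.96 ± 0.24, adjusted p = 0.00106), although each call was lost in at least 3 of 4 fits with a library left out. Smaller falls of abundant enzymes completed the counts. YAPi lowered all 3 genes of pyruvate and lactate handling, with LDHA at 16651 and 14120.3 against 21799.6 and 21551 (log2 fold change -0.49 ± 0.11), and GAPDH, PFKP and TPI1 by -0.51, -0.46 and -0.41 on the log2 scale. JUNBi lowered 5 of the 8 upper and 3 of the 7 lower glycolysis genes, with ALDOA, GAPDH, TPI1 and PKM between -0.51 and -0.43. TAZi lowered GAPDH from 57690.0 and 57391 to 43706 and 43174 (log2 fold change -0.40 ± 0.07, adjusted p = 4.91e-06), a call that was lost without either TAZi library (adjusted p up to 0.107). With STAT3i none of the lower glycolysis genes was called.

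NDRG1 and DDIT4 were the 2 members called lower in all 4 TAM knockdowns, and the calls of DDIT4 were less stable. NDRG1 stood at 5916 and 5297 with Ctrli, 1269.9 and 1289 with YAPi, 2894 and 2281 with TAZi, 2112 and 2136 with STAT3i and 1837 and 2289 with JUNBi. The log2 fold changes were -2.12 ± 0.12, adjusted p = 1.45e-70 for YAPi, -1.42 ± 0.14, adjusted p = 4.72e-23 for JUNBi, -1.38 ± 0.12, adjusted p = 1.16e-28 for STAT3i and -1.12 ± 0.13, adjusted p = 3.12e-15 for TAZi, and all 4 calls held with any 1 library left out. DDIT4, an inhibitor of mTORC1 signalling, stood at 10485 and 12965 with Ctrli, 4723 and 4174 with YAPi, 8271 and 6584 with TAZi, 8580.1 and 8490.4 with STAT3i and 5987 and 7989.5 with JUNBi. Its log2 fold changes were -1.39 ± 0.13, adjusted p = 2.25e-24 for YAPi, -0.72 ± 0.15, adjusted p = 3.15e-05 for JUNBi, -0.66 ± 0.13, adjusted p = 5.26e-05 for TAZi and -0.44 ± 0.12, adjusted p = 0.00515 for STAT3i. The TAZi call of DDIT4 was lost with edgeR, with a replicate block, and without either Ctrli TAM library or TAZi TAM replicate 2. Its JUNBi call was lost with edgeR, and without Ctrli TAM replicate 2 or JUNBi TAM replicate 1. The STAT3i call of DDIT4 was outside the 10 largest and was not followed through the alternatives.

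CA12, the carbonic anhydrase that is common in epithelia, went in both directions, and the STAT3i and JUNBi libraries also differ from the others in effective length. It stood at 721 and 675 with Ctrli, 2729 and 3565 with YAPi, 1291 and 1568 with TAZi, 355 and 369.5 with STAT3i and 472 and 428 with JUNBi. YAPi and TAZi raised it (log2 fold changes 2.18 ± 0.16, adjusted p = 7.33e-39 for YAPi and 1.03 ± 0.15, adjusted p = 2.89e-09 for TAZi) and STAT3i lowered it (-0.93 ± 0.19, adjusted p = 1.95e-05). The STAT3i call was lost without any 1 library, and the TAZi call without TAZi TAM replicate 2 (adjusted p up to 0.0668 and 0.0177). CA9 was near the floor, at 13.8 and 8.2 with Ctrli and 0 in both YAPi libraries, and was not tested. ERO1A rose with YAPi from 1016 and 1032 to 1529 and 1428 (log2 fold change 0.54 ± 0.14, adjusted p = 0.00108). Of the collagen prolyl hydroxylases, P4HA1 fell with YAPi from 627 and 653 to 357 and 402 (-0.74 ± 0.19, adjusted p = 0.000997) and P4HA2 with TAZi from 777 and 808 to 464 and 537 (-0.66 ± 0.17, adjusted p = 0.00312). These 3 calls were lost without any 1 library (adjusted p up to 0.394). BNIP3, BNIP3L, KDM3A and ANKRD37 passed the test in none of the TAM knockdowns.

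With 1 library left out, the number of called members ran from 4 to 9 for YAPi, 3 to 5 for TAZi, 5 to 7 for STAT3i and 6 to 14 for JUNBi. The lowest came without Ctrli TAM replicate 1 for YAPi and JUNBi, without Ctrli TAM replicate 2 for STAT3i and without TAZi TAM replicate 2 for TAZi.

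**Figure D3:**
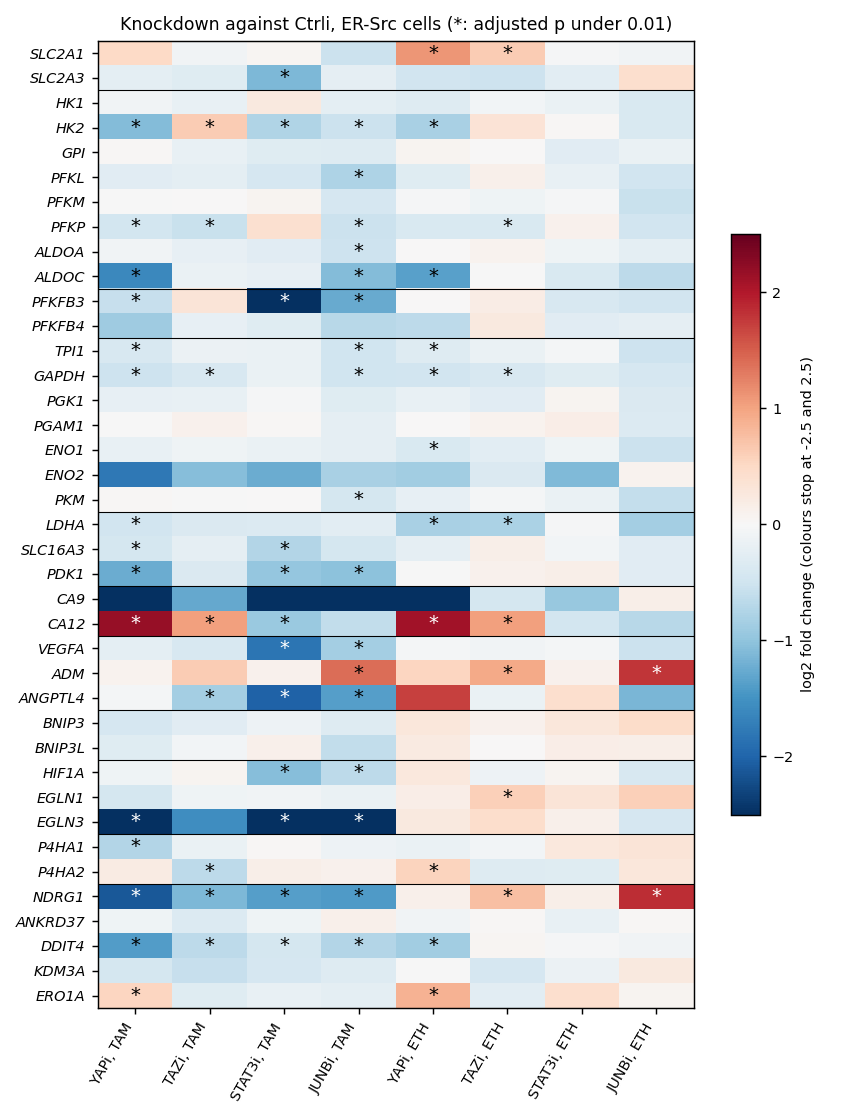
Heat map of the log2 fold change of each of the 39 members (rows, by role) for each knockdown against Ctrli under TAM and under ETH in ER-Src cells (columns), with asterisks at an adjusted p under 0.01 (DESeq2). The JUNBi TAM column has 17 asterisks, and the STAT3i ETH column has none.

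Under ETH, with Src not induced, the same knockdowns touched the list less evenly. YAPi raised 4 members and lowered 7, where 5.03% of the 15005 genes tested were called higher and 6.36% lower, with a median of -0.06. TAZi raised 5 and lowered 3, where 2.75% of the 13253 genes tested were called higher and 2.78% lower, with a median of -0.01. JUNBi raised 2 and lowered none, where 1.17% of the 15234 genes tested were called higher and 1.59% lower, with a median of -0.28. STAT3i called no member by DESeq2 or by edgeR, where 0.038% of the 18444 genes tested were called higher and 0.163% lower, with 3 members at an unadjusted p under 0.05 by DESeq2 and 5 by edgeR. All members with STAT3i lay between -1.11 and 0.43 on the log2 scale.

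CA12 rose with YAPi from 575 and 586 to 2164 and 2878 (log2 fold change 2.11 ± 0.15, adjusted p = 1.26e-39) and with TAZi to 1073 and 1292 (1.02 ± 0.16, adjusted p = 2.06e-08). SLC2A1 rose from 589 and 665 to 1115 and 1610.3 with YAPi (1.11 ± 0.18, adjusted p = 3.41e-08) and to 942 and 1017 with TAZi (0.64 ± 0.16, adjusted p = 0.00175), the latter lost without any 1 library. LDHA fell from 17305 and 16103 to 9763 and 9437 with YAPi (-0.81 ± 0.10, adjusted p = 2.05e-14) and to 10653 and 8847 with TAZi (-0.78 ± 0.11, adjusted p = 7.01e-10). GAPDH fell with both (log2 fold changes -0.48 and -0.41), calls that were lost without either Ctrli ETH library. In both knockdowns SLC2A1 was above, and LDHA below, every Ctrli ETH library.

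With YAPi, ERO1A rose from 679 and 620.2 to 1226 and 1172 (0.88 ± 0.15, adjusted p = 8.49e-08) and P4HA2 to 1054 and 1397 from 788 and 862 (0.56 ± 0.16, adjusted p = 0.00623). ALDOC fell from 302 and 329.7 to 103 and 146 (-1.37 ± 0.26, adjusted p = 6.18e-06), DDIT4 from 8602 and 10209 to 5326 and 5058 (-0.86 ± 0.11, adjusted p = 2.17e-12) and HK2 from 912 and 877 to 531 and 491 (-0.81 ± 0.16, adjusted p = 6.75e-06). ENO1 fell by a log2 fold change of -0.39 ± 0.09, and TPI1, outside the 10 largest, by -0.33 ± 0.10. Of these, ALDOC, HK2, P4HA2 and ENO1 lost their calls when either Ctrli ETH library was left out (adjusted p up to 0.353), and ERO1A without Ctrli ETH replicate 2 (0.0107).

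NDRG1 and ADM rose with 2 of the ETH knockdowns. NDRG1 went from 943 and 1021 to 3051 and 4083 with JUNBi (log2 fold change 1.85 ± 0.24, adjusted p = 1.2e-11) and to 1562 and 1757 with TAZi (0.75 ± 0.14, adjusted p = 3.58e-06). ADM went from 279.8 and 254 to 729 and 1141 with JUNBi (1.79 ± 0.30, adjusted p = 4e-07) and to 524 and 513 with TAZi (0.95 ± 0.20, adjusted p = 0.000143). EdgeR called neither gene with JUNBi, where 12 members had an unadjusted p under 0.05 against 10 by DESeq2. The JUNBi ETH libraries differed most from each other of all groups (SD of the log2 ratio between them 0.52 over genes), and without JUNBi ETH replicate 2 the count was 16 members, 2 higher and 14 lower. Effective length offsets gave 2 higher and 5 lower. With TAZi EGLN1 rose to 1589.9 and 2275 from 1192 and 1347 (0.60 ± 0.17, adjusted p = 0.0065) and PFKP fell to 3082 and 3402 from 4051 and 4361 (-0.38 ± 0.11, adjusted p = 0.00859), and both calls were lost when either Ctrli ETH library was left out, as were the ADM calls with either siRNA. The TAZi call of NDRG1 was lost without Ctrli ETH replicate 1 or TAZi ETH replicate 2 (adjusted p up to 0.082). The members called ranged over the fits without 1 library from 4 to 11 for YAPi, 2 to 5 for TAZi and 1 to 16 for JUNBi.

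Whether a knockdown acted differently under TAM than under ETH was tested as an interaction term. All called interactions among the members were negative. STAT3i had 5, where 0.447% of the 15885 genes tested were called higher and 0.951% lower. TAZi had 2, where 0.347% of the 4328 genes tested were called higher and 1.29% lower. YAPi had 1, where 0.178% of the 15721 genes tested were called higher and 0.318% lower, and JUNBi had 1, where 0.0686% of the 16037 genes tested were called higher and 0.218% lower. The member medians of the interaction were -0.25 for YAPi, -0.19 for TAZi, -0.25 for STAT3i and -0.31 for JUNBi, and the 4 tests share the Ctrli libraries.

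NDRG1 was called in all 4 interactions. With JUNBi it was above Ctrli under ETH and below it under TAM, and the interaction on the log2 scale was -3.29 ± 0.27, adjusted p = 3.38e-29. With YAPi the ETH libraries stood at 848 and 1314, close to the Ctrli ETH libraries at 943 and 1021, and the interaction was -2.26 ± 0.22, adjusted p = 3.13e-20. For TAZi it was -1.89 ± 0.18, adjusted p = 7.51e-23 and for STAT3i -1.55 ± 0.20, adjusted p = 2.02e-12. All 4 calls held by DESeq2 with any 1 of the 8 libraries left out, while effective length offsets ended the STAT3i call and edgeR called no member for JUNBi, where 11 had an unadjusted p under 0.05 against 10 by DESeq2.

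For STAT3i the other 4 interactions were ANGPTL4 (-2.47 ± 0.34, adjusted p = 3.72e-10), PFKFB3 (-2.13 ± 0.30, adjusted p = 9.03e-10), VEGFA (-1.80 ± 0.24, adjusted p = 6.96e-11) and HIF1A (-1.14 ± 0.20, adjusted p = 3.87e-06). Under ETH their STAT3i libraries were 393 and 856, 170.2 and 221, 499 and 659.5 and 4642 and 3986, against Ctrli ETH at 413 and 525, 259 and 261, 603 and 608 and 4245 and 4095. PFKFB3 alone was below both controls there, and the other 3 overlapped with them. The HIF1A interaction was lost with edgeR and with effective length offsets. The ANGPTL4 interaction was lost with edgeR and when any 1 TAM library was left out (adjusted p up to 0.0461). For TAZi the other was DDIT4 (-0.72 ± 0.17, adjusted p = 0.00331), with ETH libraries at 9184 and 10311 against 8602 and 10209. The DDIT4 call was lost with edgeR, with effective length offsets and with a replicate block. It was also lost without Ctrli ETH replicate 1, Ctrli TAM replicate 2, TAZi ETH replicate 2 or TAZi TAM replicate 2. STAT3 RNA itself was at 27.0% of control under ETH and 15.6% under TAM.

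In MDA-MB-231 set 1 the knockdowns were compared with each other first, since all 8 libraries hold RNAs without a poly(A) tail. They are not alike in all respects: gene length less effective length was 48.0 bases in replicate 1 and 74.56 to 74.57 in replicate 2 of each knockdown. Each knockdown was set against the mean of the other 3 with the replicate number as a block, so a value says how knockdowns differ and not which of them left the control state. YAPi_TAZi was higher for 21 members and lower for 1, where 4.45% of the 11209 genes tested were called higher and 6% lower, with a median of 0.43 that lies above the upper quartile of all genes (0.24). TAZi was higher for 2 and lower for 17, where 5.93% of the 10729 genes tested were called higher and 4.8% lower, with a median of -0.22. YAPi was higher for 6 and lower for 8, where 7.08% of the 10248 genes tested were called higher and 3.89% lower, with a median of -0.14. TEADi was higher for 10 and lower for 3, where 6.08% of the 11690 genes tested were called higher and 5.56% lower, with a median of 0.07. The 4 contrasts use the same libraries, and a rise in one is in part a fall in the others.

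HK2 differed widely between the knockdowns. It stood at 38.6 and 35.3 with YAPi, 157 and 220.1 with TAZi, 51.0 and 64.4 with YAPi_TAZi and 122 and 149.7 with TEADi, so the libraries with YAP siRNA were the lowest. The log2 differences were -1.63 ± 0.27, adjusted p = 9e-08 for YAPi, 1.51 ± 0.22, adjusted p = 1.29e-10 for TAZi and 0.88 ± 0.23, adjusted p = 0.00114 for TEADi. The first was lost without YAPi replicate 2, the second without TAZi replicate 2 and the third without any 1 of 7 libraries. PFKFB4, a hypoxia-induced bifunctional enzyme, stood at 110.1 and 118 with YAPi, 145 and 137 with TAZi, 416 and 401 with YAPi_TAZi and 317 and 341 with TEADi. Its log2 differences were -1.23 ± 0.16, adjusted p = 7.79e-13 for YAPi, -0.82 ± 0.15, adjusted p = 1.71e-06 for TAZi, 1.22 ± 0.13, adjusted p = 7.96e-18 for YAPi_TAZi and 0.82 ± 0.14, adjusted p = 5.55e-08 for TEADi, of which the TAZi call was lost without TAZi replicate 2 and the TEADi call without TEADi replicate 2. SLC2A3 stood at 260.1 and 290.1 with YAPi, 174 and 158 with TAZi, 457 and 448 with YAPi_TAZi and 336 and 389.7 with TEADi, lowest with TAZi (-1.11 ± 0.14, adjusted p = 1.4e-13) and highest with YAPi_TAZi (0.82 ± 0.12, adjusted p = 1.88e-09).

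Among the abundant enzymes, PGAM1, phosphoglycerate mutase, stood at 1855 and 1474 with YAPi, 1810.4 and 1572 with TAZi, 1727 and 1794 with YAPi_TAZi and 849 and 876 with TEADi, and the TEADi libraries were below all 6 others (log2 difference -0.98 ± 0.09, adjusted p = 2.84e-23). PGK1, phosphoglycerate kinase, was lower with TAZi, at 1923 and 1881 (-0.65 ± 0.06, adjusted p = 1.68e-26). PKM, pyruvate kinase, was higher with TEADi, at 10364 and 9549 (0.41 ± 0.05, adjusted p = 1.22e-16), and ENO1 with YAPi, at 6563 and 5822 (0.34 ± 0.05, adjusted p = 6.17e-11). PDK1 and ADM were higher with YAPi_TAZi (log2 differences 0.78 ± 0.23 and 0.73 ± 0.21), but these calls were lost in 7 of 7 and 8 of 8 fits with a library left out (adjusted p up to 0.48).

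Several hypoxia targets were highest with YAPi_TAZi. CA12 stood at 28.6 and 22.2 with YAPi, 40.8 and 25.7 with TAZi, 122 and 102 with YAPi_TAZi and 17.2 and 18.1 with TEADi, and the YAPi_TAZi libraries were the highest (log2 difference 2.18 ± 0.33, adjusted p = 1.21e-09). DDIT4 stood at 222 and 217 with YAPi, 274 and 269 with TAZi, 744 and 771 with YAPi_TAZi and 375 and 290.4 with TEADi, again highest with YAPi_TAZi (1.49 ± 0.12, adjusted p = 5.08e-35) and lowest with YAPi (-0.90 ± 0.13, adjusted p = 3.41e-10). BNIP3, a mitophagy receptor, stood at 549 and 676 with YAPi, 517 and 547 with TAZi, 991 and 1047 with YAPi_TAZi and 526 and 589 with TEADi (0.84 ± 0.09, adjusted p = 1.51e-19 for YAPi_TAZi), and BNIP3L was lower with TAZi, at 565 and 732 (-0.58 ± 0.08, adjusted p = 4.64e-11). HIF1A stood at 1809 and 2066 with YAPi, 2164 and 2238 with TAZi, 2755 and 2837 with YAPi_TAZi and 1590.1 and 1807 with TEADi, lowest with TEADi (-0.43 ± 0.07, adjusted p = 2.54e-09).

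NDRG1 and VEGFA fell into 2 pairs. NDRG1 stood at 472 and 407 with YAPi, 368 and 304 with TAZi, 879 and 759.7 with YAPi_TAZi and 881 and 764 with TEADi, and VEGFA at 1478 and 1227 with YAPi, 1140.0 and 1020.4 with TAZi, 2559 and 2235 with YAPi_TAZi and 2706 and 2335 with TEADi, so both were lower with either single siRNA than with YAPi_TAZi or TEADi. For TAZi the log2 difference was -0.99 ± 0.10, adjusted p = 9.21e-22 for NDRG1 and -0.89 ± 0.06, adjusted p = 1.54e-40 for VEGFA, and for TEADi 0.74 ± 0.09, adjusted p = 2.98e-15 and 0.73 ± 0.06, adjusted p = 5.33e-32. P4HA2 stood at 322 and 339 with YAPi, 136 and 132 with TAZi, 198 and 185 with YAPi_TAZi and 466 and 485 with TEADi, highest with TEADi (1.23 ± 0.12, adjusted p = 3.33e-21) and lowest with TAZi (-1.21 ± 0.15, adjusted p = 1.04e-14). ERO1A was lowest with TAZi, at 262 and 323 (-1.01 ± 0.11, adjusted p = 1.45e-19), and the histone demethylase KDM3A also, at 138 and 156 (-0.60 ± 0.15, adjusted p = 0.00157), the latter lost without any 1 library. P4HA1 was highest with YAPi_TAZi, at 569 and 714 (0.68 ± 0.10, adjusted p = 1.99e-09), and ANGPTL4 with TEADi, at 189 and 149.7 (0.83 ± 0.20, adjusted p = 0.000651). The P4HA1 call was lost without YAPi_TAZi replicate 2 (adjusted p = 0.0206), and the ANGPTL4 call in 6 of 8 fits with a library left out (up to 0.315). With 1 library left out the counts ran from 5 (without YAPi replicate 2) to 11 for YAPi, 10 (without TAZi replicate 2) to 17 for TAZi, 9 (without YAPi_TAZi replicate 2) to 18 for YAPi_TAZi and 6 (without TEADi replicate 2) to 10 for TEADi.

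**Figure D4:**
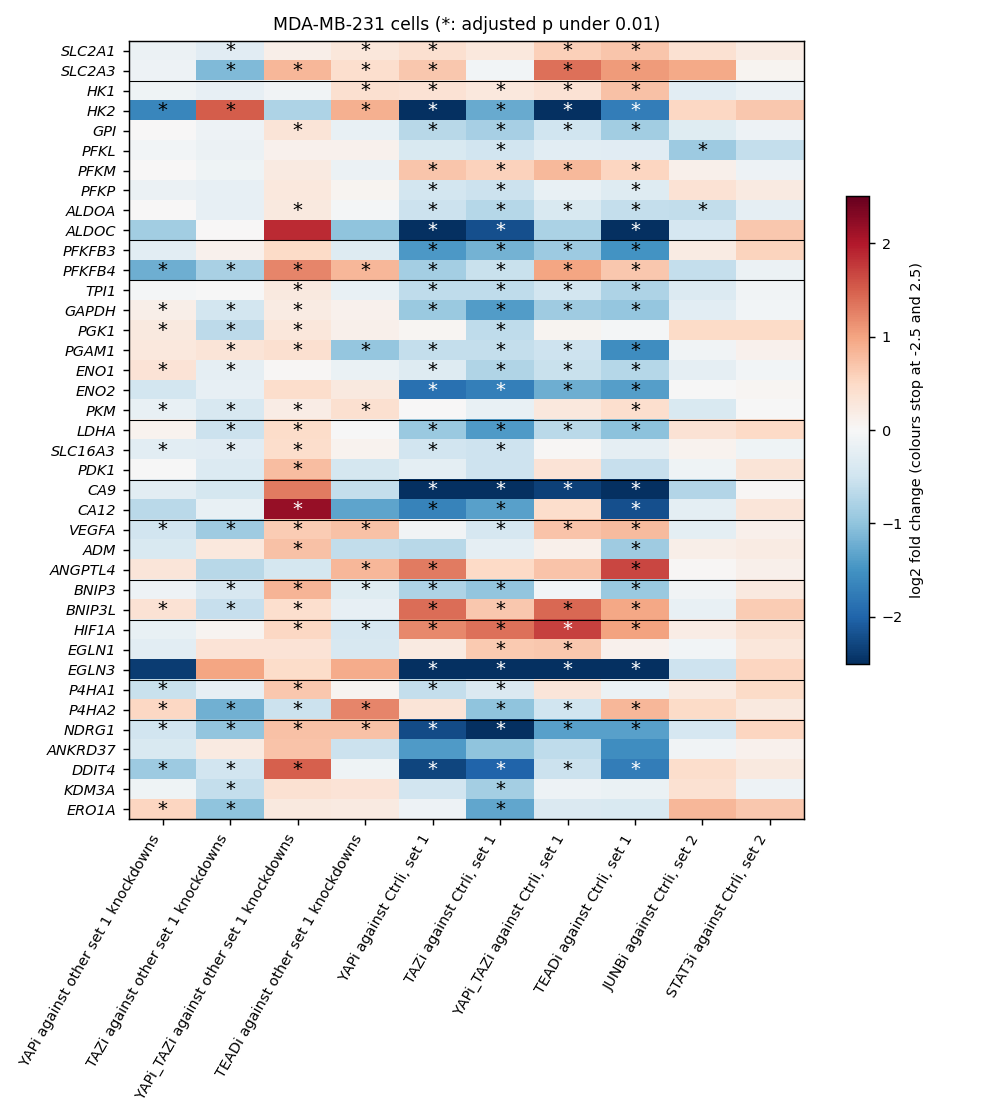
Heat map of the log2 fold change of each of the 39 members (rows, by role) in MDA-MB-231: set 1 knockdowns against Ctrli, set 1 knockdowns against the mean of the other 3, and set 2 knockdowns against Ctrli (columns), with asterisks at an adjusted p under 0.01 (DESeq2). The YAPi_TAZi column against the other knockdowns has 21 higher members, and the STAT3i column of set 2 has no asterisk.

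Against the set 1 controls, most members were called in every knockdown, as were many other genes. YAPi had 7 higher and 21 lower, where 12.2% of the 16777 genes tested were called higher and 11.9% lower, and a median of -0.54. TAZi had 5 higher and 27 lower, where 15.7% of the 17963 genes tested were called higher and 16.6% lower, and a median of -0.64. YAPi_TAZi had 9 higher and 15 lower, where 17.3% of the 19129 genes tested were called higher and 18.2% lower, and a median of -0.19. TEADi had 11 higher and 19 lower, where 13.7% of the 16694 genes tested were called higher and 14.4% lower, and a median of -0.57. These values carry the difference in library kind as well as the siRNA, and with the controls of both sets together only 3, 3, 2 and 2 members were called. Without Ctrli replicate 1 the counts fell to 13 for YAPi, 12 for YAPi_TAZi and 20 for TEADi, and without Ctrli replicate 2 to 17 for TAZi.

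HK2 was at 431 and 459 in the controls, above all 8 knockdown libraries, with log2 fold changes of -3.61 (YAPi), -1.26 (TAZi), -2.96 (YAPi_TAZi) and -1.73 (TEADi). EGLN3 was at 67.1 and 90.3 in the controls and at 0 and 3.9 with YAPi, 8.5 and 12.3 with TAZi, 6.1 and 10.0 with YAPi_TAZi and 9.6 and 10.3 with TEADi. CA9 was at 68.3 and 79.3 in the controls and between 2.9 and 15.7 in the knockdowns. DDIT4 was at 1001 and 1130.3 in the controls, with log2 fold changes from -2.30 (YAPi) to -0.53 (YAPi_TAZi). The knockdown libraries of these 4 genes were below every control library, and EGLN3 lost its call in each knockdown without Ctrli replicate 2, as did ALDOC and CA12 with YAPi, TAZi or TEADi without either control.

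HIF1A was higher than in the controls (847 and 816) in all 4 knockdowns, with log2 fold changes of 1.20 (YAPi), 1.37 (TAZi), 1.71 (YAPi_TAZi) and 1.00 (TEADi). NDRG1, at 1663 and 2439 in the controls, was lower in all 4, from -2.65 (TAZi) to -1.36 (TEADi). ENO2 (from -1.87 to -1.22) and PFKFB3 (from -1.5 to -0.90) were lower in all 4, and ALDOC and CA12 in YAPi, TAZi and TEADi. BNIP3L rose in all 4, and SLC2A3 in YAPi, YAPi_TAZi (1.37) and TEADi. PFKFB4 rose in YAPi_TAZi (0.98) and TEADi and fell in YAPi and TAZi. GAPDH (-1.39) and LDHA (-1.42) were among the 10 largest for TAZi, and PGAM1 (-1.55) and ANGPTL4 (1.67) for TEADi. The ANGPTL4 value turned to -0.30 (adjusted p = 0.85) with the controls of both sets together. Values outside the 10 largest of a comparison were added after they were seen, to follow a gene through all 4.

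In MDA-MB-231 set 2, JUNBi lowered 2 members and raised none, where 0.292% of the 7187 genes tested were called higher and 3.7% lower, with a median of -0.09. PFKL fell from 2869.8 and 3696 to 1693 and 1811 (log2 fold change -0.90 ± 0.19, adjusted p = 0.000249), and ALDOA from 17346 and 21553 to 12949.5 and 12539 (-0.61 ± 0.17, adjusted p = 0.00983). Both libraries were below both controls, but edgeR called no member (8 at an unadjusted p under 0.05, against 10 by DESeq2), and the count was 0 without Ctrli replicate 4 or either JUNBi library. STAT3i called no member by DESeq2 or edgeR, where 0% of the 4639 genes tested were called higher and 0.237% lower, with 7 members at an unadjusted p under 0.05 by DESeq2 and 6 by edgeR. Its member median was 0.21, and it had values between -0.60 and 0.68. DESeq2's filter on low counts left 12 of the 39 members without an adjusted p there, HK2 and PFKFB3 among them. VEGFA stood at 1060.0 and 985 with Ctrli and 1089 and 1133 with STAT3i, and NDRG1 at 1410.4 and 1957 and 2898 and 1959. Neither gene was called (log2 fold changes 0.12 ± 0.19 and 0.53 ± 0.23).

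Further genes of the same biology, from lists set beside the members, were counted in the same way. With TAM, 4.56% of all genes tested were called higher and 1.56% lower. For TAM, 1 of 12 regulators of the HIF pathway was called: EPAS1, which encodes HIF-2α, rose from 1403 and 1448 to 4246 and 3927 (log2 fold change 1.53 ± 0.11, adjusted p = 1.41e-42). Of 31 further hypoxia-response genes 4 rose and none fell. STC1, the glycoprotein stanniocalcin, had the largest change, from 12.2 and 12.7 to 5261 and 4298 (log2 fold change 8.6 ± 0.33), followed by PPFIA4 (3.77 ± 1.00) and LOX, the collagen cross-linking oxidase (2.43 ± 0.15). PGD, an enzyme of the pentose phosphate pathway, fell (log2 fold change -0.42). None of 20 enzymes of pyruvate oxidation and the citric acid cycle was called. Of 29 further glycolysis isoenzymes and lactate genes 2 rose, PDP1 (0.98) and SLC16A7 (0.66). Of 8 basal epithelial markers 5 rose with TAM, of 6 mesenchymal markers 1 rose (CD44), and none of 5 luminal markers was called. In the TAM knockdowns, basal markers were 3 higher and 1 lower with YAPi, 2 and 1 with TAZi, 1 and 2 with STAT3i and 2 and 3 with JUNBi. Of the mesenchymal markers, AXL and CD44 were lower with YAPi and CD44 with STAT3i. With TAZi 1 was higher and 1 lower (AXL and SPARC), and with JUNBi none was called. The part of these markers in the values of the members was not tested.

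In the TAM knockdowns, YAPi lowered 6 of the 31 further hypoxia-response genes and raised 1, TAZi lowered 4, STAT3i lowered 5 and raised 4, and JUNBi lowered 5 and raised 1. Of all genes tested, 5.54% were called lower and 5.4% higher with YAPi, and 1.74% and 1.79% with TAZi. The shares were 4.8% and 3.29% with STAT3i, and 3.95% and 2.77% with JUNBi. STC1 stood at 5261 and 4298 with Ctrli, 394 and 289 with YAPi, 1642 and 1416 with TAZi, 181 and 104 with STAT3i and 529.7 and 507 with JUNBi. Its log2 fold changes were -5.05 ± 0.41, adjusted p = 9.21e-32 for STAT3i, -3.81 ± 0.17, adjusted p = 4.39e-110 for YAPi, -3.18 ± 0.14, adjusted p = 1.92e-109 for JUNBi and -1.65 ± 0.13, adjusted p = 1.48e-32 for TAZi. LOX fell with YAPi (-2.46), STAT3i (-1.67) and TAZi (-0.76), PPFIA4 with YAPi (-3.88) and JUNBi (-3.63), and EPAS1 with STAT3i (-1.53) and TAZi (-1.05). Of the 20 citric acid cycle and pyruvate enzymes, 1 was called with YAPi (SDHA, -0.54) and 1 with STAT3i (DLD, 0.73), and none with TAZi or JUNBi. Of the pentose phosphate enzymes TKT, transketolase, fell with YAPi (-0.78) and JUNBi (-0.46). The interactions with treatment were called for STC1 in all 4 knockdowns, from -3.80 for STAT3i to -1.81 for TAZi, and for LOX in all 4, from -2.0 for YAPi to -1.06 for TAZi.

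In set 1 of MDA-MB-231, EPAS1 stood at 303 and 309.7 with YAPi, 91.9 and 74.1 with TAZi, 73.4 and 100.1 with YAPi_TAZi and 252 and 249 with TEADi. It was higher than in the other knockdowns with YAPi (1.33 ± 0.16, adjusted p = 3.83e-14) and TEADi (0.94 ± 0.17, adjusted p = 6.17e-07) and lower with TAZi (-1.20 ± 0.19, adjusted p = 2.04e-08) and YAPi_TAZi (-1.07 ± 0.20, adjusted p = 3.18e-06). Of the 31 further hypoxia-response genes, 6 were higher and 2 lower with YAPi_TAZi, 3 and 0 with YAPi, 2 and 1 with TAZi and 1 and 2 with TEADi. Of all genes tested, 4.45% were called higher and 6% lower with YAPi_TAZi, and 7.08% and 3.89% with YAPi. The shares were 5.93% and 4.8% with TAZi, and 6.08% and 5.56% with TEADi. The mesenchymal markers VIM and AXL were both lower with TAZi and YAPi_TAZi and higher with TEADi, and AXL was higher with YAPi. Against the set 1 controls, 3 to 4 of 6 mesenchymal, 2 to 3 of 8 basal and 1 of 5 luminal markers were called in each knockdown, and their part was not tested. Counted per direction, 11.9% to 18.2% of all genes tested were called in these comparisons.

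**Figure D5:**
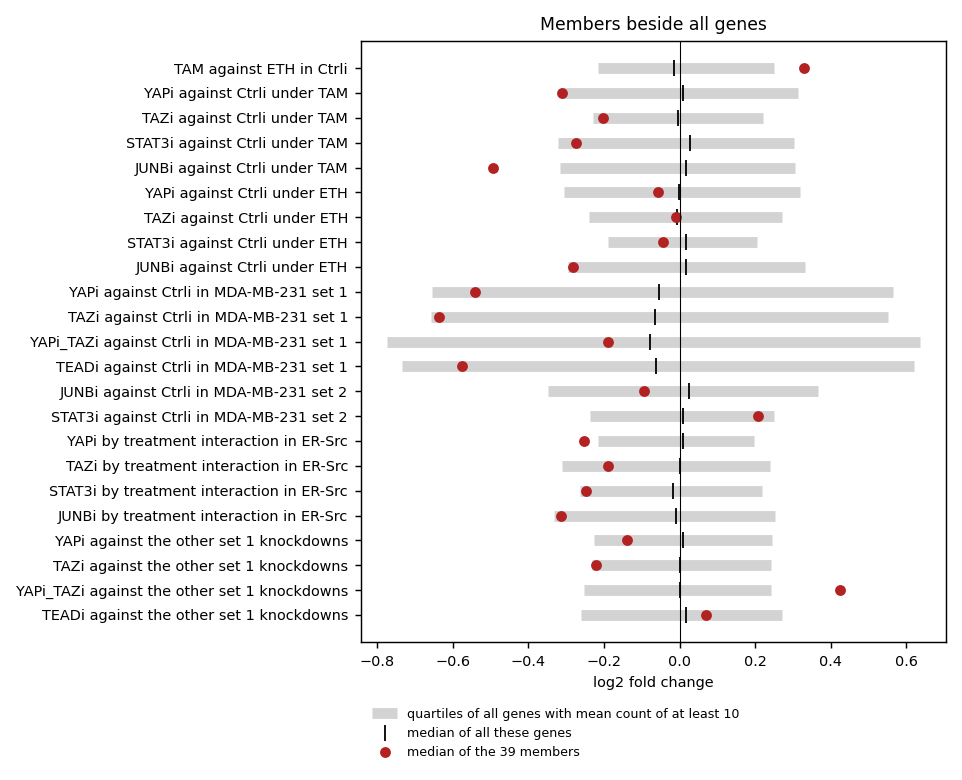
Median log2 fold change of the 39 members (points) beside the median and middle 50% of all genes that averaged 10 counts or more (lines) in the 23 comparisons. The member median lies above the upper quartile of all genes for TAM against ETH and for YAPi_TAZi against the other set 1 knockdowns, and below the lower quartile for JUNBi under TAM and for the YAPi by treatment interaction.

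Across the 23 comparisons, the member medians ran from -0.64 (TAZi against Ctrli in set 1) to 0.43 (YAPi_TAZi against the other set 1 knockdowns). In TAM against ETH the member median (0.33) lay above the upper quartile of all genes (0.25), and in the TAM knockdowns all 4 medians were below 0. All these comparisons use the same Ctrli TAM libraries, so the rise and the falls are not separate observations. The all-gene medians lay between -0.08 and 0.03. The member median of the YAPi interaction (-0.25) was below the lower quartile of all genes (-0.22), and in the other 19 comparisons the median of all 39 members was inside the middle 50%. Over only the members that averaged 10 counts or more, as the all-gene quartiles do, TAZi against the other set 1 knockdowns was below the lower quartile as well (-0.25 against -0.23).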

How the data were processed

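RNA-seq libraries were made from siRNA-treated ER-Src and MDA-MB-231 cells. The labels name 1 kit (TruSeq Ribo Profile) for all of them, although RNAs without a poly(A) tail were nearly absent from the set 1 controls and set 2 only. The authors aligned reads with STAR to GENCODE version 30 (hg38) and quantified genes with RSEM (tool versions are not given in the sources used here). They deposited expected counts, which are estimated reads per gene without normalization, and TPM, which RSEM scales by effective length and library total; effective lengths were used for an alternative. Groups came from the sample titles. Symbols came from GENCODE version 44, which matched 93.1% of 60725 Ensembl genes, and 746 other identifiers were left out. Protein-coding genes held 20.0% to 94.5% of TPM, so TPM were rescaled by median-of-ratios factors over protein-coding genes within each of 3 sets of libraries. Normalized counts are rounded expected counts divided by such factors.

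Expected counts were rounded, and each comparison had its own DESeq2 1.42.0 run (R 4.3.3) over all genes, with the Wald test and the tool's defaults for scaling and filtering, as the study did. The threshold for a call was 0.01 on the p-value adjusted after Benjamini and Hochberg. Adjusted p-values come from DESeq2 where edgeR is not mentioned. A gene that the filter left without an adjusted p stayed out of the calls. For YAPi_TAZi against Ctrli in set 1, DESeq2 replaced its dispersion curve with a local fit. Interactions and contrasts among set 1 knockdowns, the latter with the replicate number as a block, used the same tool. Alternatives were edgeR 4.0.16, TMM size factors, a mean count of at least 10, effective length offsets, added pseudogene counts, a replicate block, pooled Ctrli libraries of sets 1 and 2, and leaving out each library. Scripts were tested on simulated data.

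The members, lists and tests were chosen with earlier results of these data known. Called members were named up to the 10 largest log2 fold changes per comparison, and up to 3 genes per further list. Values of a named member in other comparisons were added to show it side by side, and a few further members and list genes were named after their values were seen. Some genes of the further lists are not reported here. Depth ran from 1411304 to 19161700 expected counts, and groups of 2 libraries leave small changes undetected, so no call does not mean no change.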

Additional observations from a re-analysis of the deposited data

Results flagged for a closer look

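These 9 results differed between ETH and TAM for the same knockdown, by the interaction term of DESeq2 (adjusted p under 0.01), and are given with no explanation. NDRG1 did so with each siRNA, at -2.26 on the log2 scale for YAPi, -1.89 for TAZi, -1.55 for STAT3i and -3.29 for JUNBi. Its response to JUNBi was 1.85 under ETH and -1.42 under TAM, so the sign differed between treatments. EdgeR called neither the JUNBi response of NDRG1 under ETH nor its JUNBi interaction. With TAZi the response of NDRG1 was 0.75 under ETH and -1.12 under TAM. DDIT4 differed for TAZi (-0.72). For STAT3i the differences were -2.47 for ANGPTL4, -2.13 for PFKFB3, -1.80 for VEGFA and -1.14 for HIF1A. EdgeR also lost the calls of DDIT4 with TAZi and of ANGPTL4 and HIF1A with STAT3i. Effective length offsets lost those of NDRG1 and HIF1A with STAT3i and of DDIT4 with TAZi. All 9 share the Ctrli ETH and Ctrli TAM libraries. Groups of 2 libraries are too small for a test of single outlying libraries.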

How the results depend on the processing

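Comparisons are named by siRNA and treatment or set. Of 266 member counts recomputed, 174 stayed within 1.5 times, and of 266 member medians 215 within the replicate spread. For the 159 calls of named members, 991 values under other settings kept 873 calls and lost 117 in the same direction, and 1 turned: ANGPTL4 with TEADi in set 1, at -0.30 with the controls of both sets. Of 828 values with 1 library left out, 609 kept the call, 219 lost it and none turned, and 62 calls held in all alternatives. The causes of these shifts were not tested.

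The members called were, with edgeR, TAZi TAM 3, JUNBi TAM 10, TAZi ETH 5, JUNBi ETH 0, JUNBi set 2 0, TAZi interaction 1, STAT3i interaction 3 and JUNBi interaction 0, with TMM size factors JUNBi set 2 1, with a mean count of at least 10 YAPi interaction 2, with effective length offsets JUNBi TAM 11, JUNBi ETH 7, JUNBi set 2 1, TAZi interaction 1, STAT3i interaction 3, YAPi among knockdowns 4, YAPi_TAZi among knockdowns 13 and TEADi among knockdowns 7, and with the controls of both sets YAPi set 1 3, TAZi set 1 3, YAPi_TAZi set 1 2, TEADi set 1 2 and JUNBi set 2 0. Medians moved with edgeR to TAZi set 1 -0.57 and TEADi set 1 -0.51, with TMM to YAPi set 1 -0.65, TAZi set 1 -0.74, YAPi_TAZi set 1 -0.30 and TEADi set 1 -0.68, with the mean count filter to YAPi set 1 -0.47, TAZi set 1 -0.56, YAPi_TAZi set 1 -0.0887 and TEADi set 1 -0.49, with effective lengths to TAM 0.30, YAPi TAM -0.36, YAPi ETH -0.20, TAZi ETH -0.12, STAT3i ETH -0.14, TAZi set 1 -0.70, YAPi_TAZi set 1 -0.13, TAZi interaction -0.12 and TAZi among knockdowns -0.33, and with the controls of both sets to TAZi set 1 -0.50, YAPi_TAZi set 1 -0.0349, TEADi set 1 -0.41, JUNBi set 2 -0.37 and STAT3i set 2 -0.31. Adding pseudogene counts kept all member counts within 1.5 times (JUNBi TAM 16, YAPi_TAZi among knockdowns 21, TEADi among knockdowns 11) and all medians within the replicate spread.

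A replicate block over the numbers of the libraries gave members called of YAPi TAM 9, TAZi TAM 5, TAZi ETH 5, JUNBi ETH 4, YAPi interaction 2 and TAZi interaction 1, and without the replicate block YAPi among knockdowns 7, TAZi among knockdowns 12 and YAPi_TAZi among knockdowns 10. The pairing correlations of like-numbered libraries were -0.085 to 0.128 for TAM knockdowns, 0.212 to 0.520 under ETH, -0.043 to 0.014 between set 1 knockdowns and Ctrli and 0.235 to 0.320 among set 1 knockdowns. Under ETH the block dropped ADM, SLC2A1 and PFKP with TAZi and P4HA2 with YAPi. Since each group has 2 libraries, the numbers were not taken to pair the ER-Src libraries, while among the set 1 knockdowns the number goes with a library property (effective length) and was kept as a block. No paired analysis was possible because of unlike numbers in set 2 (Ctrli 3 and 4, knockdowns 1 and 2).

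With 1 library left out, the members called ran over these ranges: TAM 6 to 9, YAPi TAM 4 to 9, TAZi TAM 3 to 5, STAT3i TAM 5 to 7, JUNBi TAM 6 to 14, YAPi ETH 4 to 11, TAZi ETH 2 to 5, JUNBi ETH 1 to 16, YAPi set 1 13 to 28, TAZi set 1 17 to 30, YAPi_TAZi set 1 12 to 27, JUNBi set 2 0 to 5, STAT3i set 2 0 to 3, YAPi interaction 1 to 3, TAZi interaction 1 to 4, JUNBi interaction 1 to 5, YAPi among knockdowns 5 to 11, TAZi among knockdowns 10 to 17, YAPi_TAZi among knockdowns 9 to 18 and TEADi among knockdowns 6 to 10. The medians ran over: TAM 0.24 to 0.33, YAPi TAM -0.34 to -0.25, TAZi TAM -0.29 to -0.14, STAT3i TAM -0.30 to -0.21, JUNBi TAM -0.54 to -0.41, YAPi ETH -0.15 to -0.069, TAZi ETH -0.0793 to -0.0006, STAT3i ETH -0.12 to -0.0227, JUNBi ETH -0.43 to -0.23, YAPi set 1 -0.66 to -0.47, TAZi set 1 -0.80 to -0.56, TEADi set 1 -0.64 to -0.50, STAT3i set 2 0.0311 to 0.22, YAPi interaction -0.33 to -0.16, STAT3i interaction -0.37 to -0.16, JUNBi interaction -0.41 to -0.0742 and TAZi among knockdowns -0.29 to -0.19. A lone library was assumed to vary like its other group. Depth limits the rarer members: CA9 and EGLN3 had no adjusted p in any of the 4 contrasts among set 1 knockdowns, and 11 members in the TAZi interaction, 6 with JUNBi and 12 with STAT3i in set 2 had none.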

Other observations

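Under ETH, the further lists held few calls. Of all genes tested, 5.03% were called higher and 6.36% lower with YAPi. The shares were 2.75% and 2.78% with TAZi, and 1.17% and 1.59% with JUNBi. YAPi raised 3 of 31 further hypoxia-response genes (PLOD2 0.61, STC2 1.19 and GBE1 0.46 on the log2 scale) and lowered 4 of 20 pyruvate and citric acid cycle enzymes. The median of these 20 was -0.20 for YAPi, -0.15 for TAZi, -0.11 for JUNBi and 0.08 for STAT3i, and differences between knockdowns were not tested. TAZi lowered EPAS1 (-0.62) of the HIF pathway regulators, and EGLN2, a relative of EGLN1, rose with TAZi (0.66) and YAPi (0.62). LDHB, the subunit of lactate dehydrogenase common in heart, fell with YAPi (-0.34) and TAZi (-0.42). JUNBi raised LOX (1.01) and IGFBP3 (1.87). TAZi also raised IGFBP3 (1.20). These genes were named after their values were seen. Of 8 basal epithelial markers, 6 rose and 1 fell with YAPi under ETH and 5 rose with TAZi, and their part in these results was not tested.

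In set 2 of MDA-MB-231, JUNBi lowered the further hypoxia-response genes PLOD1 (-0.77) and MIF (-0.72). Against the set 1 controls, 13 to 21 of these 31 genes were called in each knockdown. Counted per direction, 11.9% to 18.2% of all genes tested were called there. PLOD1 was at -1.29 with YAPi, -1.45 with TAZi, -1.07 with YAPi_TAZi and -1.45 with TEADi. The kind of library differs between those groups as well.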
